A study of Mus musculus with 2 samples.

Results

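Potassium channel genes were taken as all genes whose symbol has the form Kcn, a family letter code and a number, which gave 87 of the 29383 genes in the table. Of these, 73 encode the pore-forming subunits of a channel and 14 encode accessory subunits that join a pore or act on it. The long noncoding RNA Kcnq1ot1 is not among them. A gene was counted as measured when the higher of the 2 libraries reached 1 CPM. That is 1 read in every 1e+06 of the library, with library size scaled as described below. This level was reached by 42 of the 87 potassium channel genes and by 16185 of all genes.

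RNA was sequenced from the heart apex of mouse embryos at E12.5, with tissue of 8 hearts pooled into 1 library per genotype. The heterozygote (Nkx2-5cre, Ezh2f/+) and the mutant (Nkx2-5cre, Ezh2f/f) both carry a Cre recombinase driven from Nkx2-5, a transcription factor gene of the heart lineage, and both have at least 1 floxed copy of Ezh2, the gene of a histone methyltransferase that keeps genes silent. The question of the design is what differs between hearts able to recombine both Ezh2 copies and hearts able to recombine 1. No group without Cre or without a floxed allele was analysed here, and cells in which Cre is not active keep Ezh2.

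Potassium channels let potassium leave the cell and so set the resting potential and end each action potential of a heart muscle cell. Voltage-gated pores carry the transient outward current and the slow and rapid delayed rectifier currents of repolarization, inward rectifiers hold the resting potential and link it to acetylcholine and to ATP, 2-pore-domain channels pass a background leak, and small- and large-conductance pores open with calcium. Accessory subunits change how fast, or at which voltage, a pore opens.

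There is no replicate of either genotype, so no spread between animals is known, no p-value is given, and no difference has a replicate check. Every interval in parentheses after a ratio is a 95% exact Poisson interval and covers counting error only. Where read numbers are given in pairs, the heterozygote comes first and the mutant second. Ratios are mutant over heterozygote on reads scaled to library size, unless stated the other way round. The log2 ratio used for counting genes adds 1 CPM to both values and so understates differences of genes with few reads.

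The libraries held 13944617 reads (heterozygote) and 14122579 reads (mutant). After scaling, the CPM of all genes summed to 1.031e+06 in the heterozygote and 970076 in the mutant, a ratio of 0.941. Sums of CPM below are to be read beside that ratio. Ezh2 itself had 493 reads in the heterozygote against 319 in the mutant, or 36.4 and 21.9 CPM, a ratio of 0.601 (0.521 to 0.694). That count covers the whole gene, recombined exons and others alike. Genes that mark heart muscle summed to 38231 and 39438 CPM, but they did not move together. Of these 7 genes 5 were higher in the mutant, Myl7 the most at a ratio of 1.67 (1.64 to 1.70). The 2 lower ones were Myl2 at 0.858 (0.852 to 0.863) and Tnnt2 at 0.908 (0.900 to 0.917). Markers of other cells were present too: those of endothelium summed to 612 and 551 CPM, those of pericytes and smooth muscle to 1521 and 1360 CPM, those of epicardium to 145 and 154 CPM, and those of red blood cells to 4060 and 3230 CPM. Of the pericyte and smooth muscle sum, Acta2 held 1107 and 936 CPM and Cnn1 held 303 and 298, while Rgs5 stood at 3.55 and 0.481. Whether reads of Acta2 and Cnn1 came from such cells was not tested. The labels call the samples cardiomyocytes, but with markers of endothelium, epicardium and red blood cells present, the tissue was mixed. In such bulk tissue, fewer cells of a type and less RNA per cell cannot be told apart.

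What the pore-forming genes share is the selectivity filter, the short loop that strips water from potassium ions. It was searched for in the longest reading frame of each gene as glycine, aromatic residue, glycine, spelled TNGGNTANGG (tyrosine form) or TNGGNTTNGG (form with phenylalanine or leucine) in frame on the coding strand. The first T of either spelling is the middle base of the codon before the first glycine, so the search also restricts that codon. Of the 73 pore-forming genes 71 (97.3%) held a match, all but Kcnk1 and Kcnk7. A filter with another codon at that place is missed, so neither gene is shown to lack the filter. A match was in 0 of the 14 accessory genes and in 5.16% of all 21877 protein-coding genes. Shown here are the filters of the most abundant voltage-gated pore (Kcnh2), of both ATP-sensitive pores (Kcnj11 and Kcnj8), of the more abundant acetylcholine-linked pore (Kcnj5), and of a voltage-gated pore subunit with a high mutant to heterozygote ratio (Kcng1). Capitals mark the codons for glycine, aromatic residue and glycine. Sequences are in the sense of the transcript, with GRCm38 coordinates of the GENCODE M21 gene.
Kcnh2, chr5:24325546-24325575, minus strand, exon 7 of 15: ctcaccagcgtgGGCTTTGGCaatgtctct
Kcnj11, chr7:46099487-46099516, minus strand, exon 1 of 1: caggtgaccattGGTTTCGGCgggcgcatg
Kcnj8, chr6:142566439-142566468, minus strand, exon 3 of 3: caagtgaccattGGGTTTGGAgggagaatg
Kcnj5, chr9:32322550-32322579, minus strand, exon 3 of 4: gaaacaaccattGGGTATGGCttcagagtc
Kcng1, chr2:168262632-168262661, minus strand, exon 3 of 3: atgacaaccgtaGGCTACGGAgacatggta
The ATP-sensitive pores Kcnj11 and Kcnj8 share the phenylalanine form, while the other 12 of the 14 inward rectifiers, Kcnj5 among them, have the tyrosine form. Kcnh2 has the phenylalanine form as well, as do 7 of the 38 voltage-gated genes in all when leucine is counted with it.

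Potassium channel transcripts as a whole were slightly more abundant in the mutant. The 87 genes summed to 6268 heterozygote reads and 7755 mutant reads, that is 463 and 533 CPM, a ratio of 1.15 (1.11 to 1.19). Of the 42 measured genes, 27 had a log2 ratio above 0 and 15 below, with a median of 0.16. Of all 16185 measured genes, 7897 were above 0 and 8288 below, with a median of -0.01. The 27 include 7 that reached 1 CPM in the mutant alone, and the 15 include 1 that did so in the heterozygote alone. For these the direction follows from the filter. Few genes carried the summed reads: Kcnk3, Kcnh2, Kcnj5, Kcne1 and Kcnj11 held 62.6% of the heterozygote's reads and 64.1% of the mutant's.

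At least 2-fold higher in the mutant were 2 of the 42 measured genes (4.76%), Kcnab3 among them, against 0.605% of all measured genes. At least 2-fold lower were 0, against 0.173%. At 1.5-fold, 7 genes (16.7%) were higher, Kcnab3, Kcng1, Kcnmb1, Kcnip3 and Kcna6 among them, against 3.45% of all genes, and 2 (4.76%) were lower, Kcnd2 and Kcnj8, against 1.88%. With scaling by library totals alone these background shares became 4.87% and 1.17%, and 8 and 2 potassium channel genes were past 1.5-fold. All 9 genes had a mean between 1 and 10 CPM, where counting noise is large. In that range 7 of 29 potassium channel genes (24.1%) were higher, beside 6.96% of all genes, and 2 (6.9%) were lower, beside 3.6%. None of the 10 with a mean over 10 CPM differed by 1.5-fold. With scaling by library totals alone Kcne1, which is among these 10, did so at a log2 ratio of 0.62. On the scaling used elsewhere such a difference was rare at that level, with 137 of all 10663 such genes higher and 89 lower. The measured genes include 7 that reached 1 CPM in the mutant alone (among them Kcna6, Kcnab1, Kcnab3, Kcnd1, Kcng1 and Kcnh1) and 1 that did so in the heterozygote alone (Kcnd2), so for these 8 the direction follows from the filter.

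**Figure D1:**
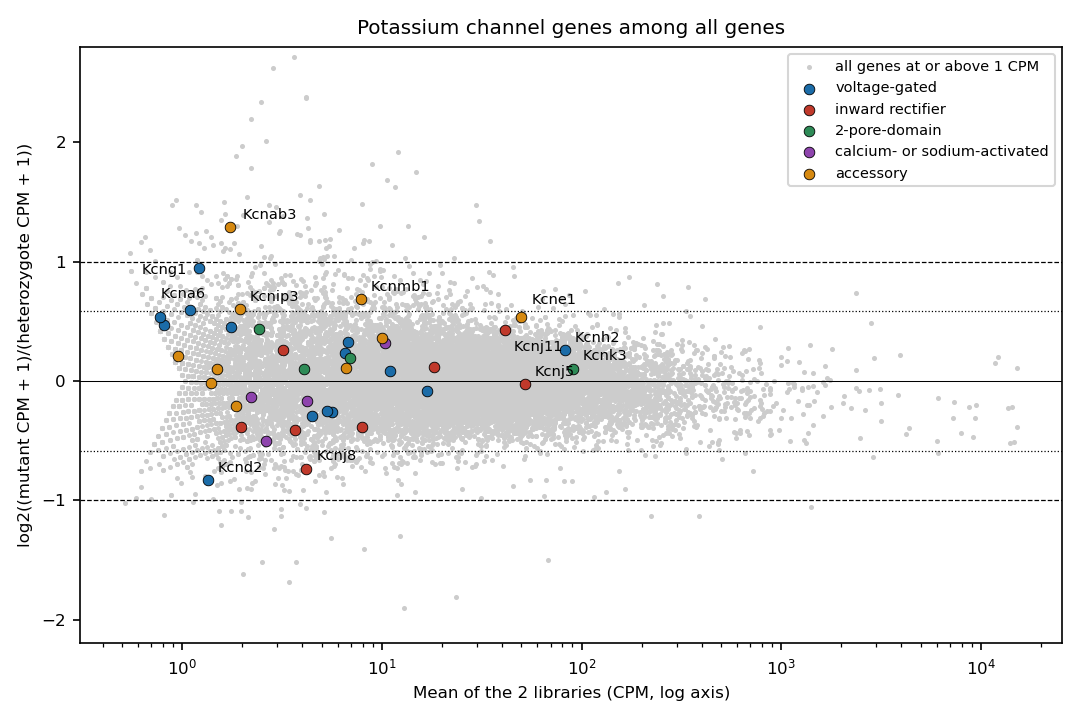
Log2 ratio of mutant to heterozygote, with 1 CPM added to both, against the mean of the 2 libraries in CPM on a log axis, for all measured genes (grey) and 40 of the 42 measured potassium channel genes (colour, by class); dashed lines mark 2-fold and dotted lines 1.5-fold. Kcnab3 lies above the upper dashed line, and the abundant Kcnk3, Kcnh2 and Kcnj5 lie close to 0.

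The voltage-gated class had 38 genes, of which 16 were measured, 11 with a log2 ratio above 0 and 5 below. Its median was 0.29 and its summed reads stood at a ratio of 1.16 (1.09 to 1.24). With a filter of 5 CPM, which 8 of the class pass, the median was -0.003. The most abundant member was Kcnh2, the pore of the rapid delayed rectifier, at 1013 and 1306 reads. Its ratio was 1.20 (1.10 to 1.302), but its log2 ratio of 0.26 became -0.03 when the dependence on GC content was taken out.

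The slow delayed rectifier joins the pore Kcnq1 with the accessory subunit Kcne1, and these differed from each other. Kcnq1 had 234 and 236 reads, a ratio of 0.937 (0.779 to 1.13) that spans 1. Kcne1 had 548 reads in the heterozygote against 863 in the mutant, a ratio of 1.46 (1.31 to 1.63). Within a library there were 2.34 Kcne1 reads per Kcnq1 read for the heterozygote and 3.66 for the mutant, an increase of 1.56 times (1.26 to 1.94) that does not depend on the scaling of the libraries. A noncoding transcript on the other strand, Kcnq1ot1, lies within Kcnq1 and had 117 and 100 reads. The sources used here do not say whether the counting used strand, so reads of the pair may be mixed. Kcne3, a small subunit that can also join Kcnq1, had 117 and 166 reads, a ratio of 1.32 (1.03 to 1.68). Its reads per Kcnq1 read went from 0.50 to 0.703, which is 1.41 times (1.03 to 1.92). Kcne2, known as a partner of Kcnh2, had 28 and 24 reads, and Kcne4 had 19 and 20. Neither ratio could be told from 1 at this depth, since Kcne2 stood at 0.796 (0.442 to 1.42) and Kcne4 at 0.978 (0.496 to 1.94).

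Of the pores of the transient outward current, Kcnd2 was lower in the mutant. It had 27 reads in the heterozygote against 10, so the heterozygote was 2.91-fold higher (1.36 to 6.73). Its close relative Kcnd3 had 68 and 57 reads, a ratio of 0.779 (0.538 to 1.12), and Kcna4, a slower pore of the same current, had 84 and 73, a ratio of 0.808 (0.582 to 1.12). For both of these the interval spans 1. The third relative, Kcnd1, went the other way with 6 and 16 reads, a ratio of 2.48 (0.921 to 7.73). Kcnd2 reached 1 CPM in the heterozygote alone and Kcnd1 in the mutant alone, so both directions follow from the filter. The share of Kcnd2 to Kcnd3 reads was 0.397 for the heterozygote and 0.175 for the mutant, with an interval of their quotient of 0.176 to 1.04. Kcnip2, the calcium-binding subunit that brings these pores to the membrane in the adult ventricle, had 8 and 5 reads and stayed under 1 CPM. Dpp6, a membrane protein that joins Kcnd pores, had 9 and 29 reads, a ratio of 2.99 (1.38 to 7.19).

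Kcna5, the pore of the ultrarapid delayed rectifier, had 80 and 112 reads, a ratio of 1.301 (0.968 to 1.76). Set against Kcna4 in the same library, its reads went from 0.952 to 1.53 per Kcna4 read, 1.61 times as many (1.03 to 2.52). Kcnq5, a pore of the M-type current, had 144 and 165 reads, a ratio of 1.06 (0.846 to 1.34).

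Some of the high ratios belonged to genes better known from neurons. Kcng1, a pore subunit that is silent alone and modifies other voltage-gated pores, had 7 and 28 reads, a ratio of 3.72 (1.59 to 10.1), and at a log2 ratio of 0.95 it was the first gene outside 2-fold. Kcna6 had 9 and 22 reads, a ratio of 2.27 (1.01 to 5.60), and lay just inside 1.5-fold with a log2 ratio of 0.59. Kcnab3, an accessory subunit that binds Kcna pores in the cytoplasm, had 8 and 42 reads, a ratio of 4.88 (2.26 to 12.03). Each of these 3 genes was under 3 CPM in both libraries. All 3 reached 1 CPM in the mutant alone, so their direction follows from the filter. Neuron and neural crest markers summed to 11.2 and 12.2 CPM, a ratio of 1.10 (0.877 to 1.37). Of the 8 markers, 5 were higher and 2 lower, and Sox10 had 0 and 3.

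**Figure D2:**
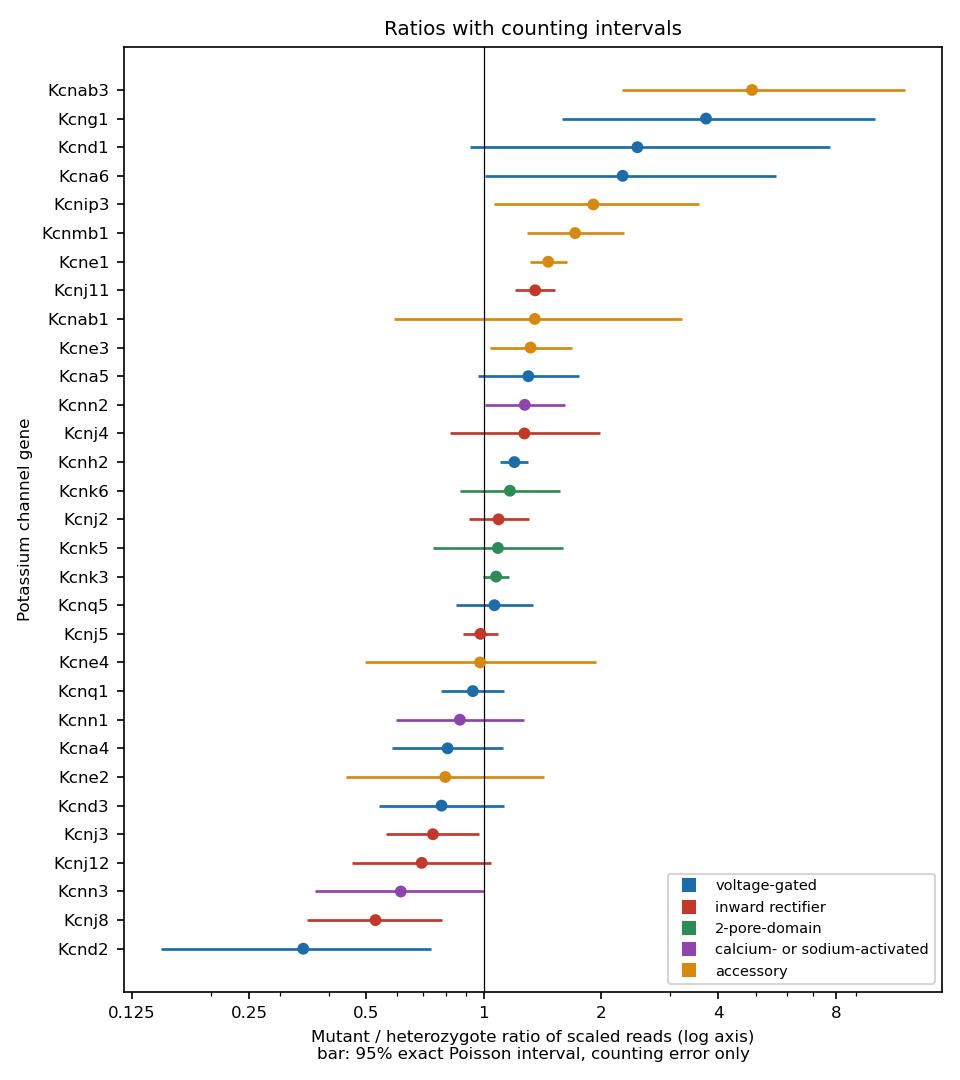
Mutant to heterozygote ratio of scaled reads on a log axis for the potassium channel genes that the text describes and that were measured; points are ratios, bars are 95% exact Poisson intervals for counting error only, and colours give the class. Kcnab3 and Kcng1 have the highest ratios drawn, with wide bars, Kcne1 and Kcnj11 have narrow bars above 1, and Kcnd2 and Kcnj8 have bars below 1.

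Among 14 inward rectifier genes 8 were measured, 3 above 0 and 5 below, with a median log2 ratio of -0.21. Their summed reads nevertheless stood at a ratio of 1.05 (0.984 to 1.12). Kcnj11, the pore of the ATP-sensitive channel of heart muscle, had 476 reads in the heterozygote against 694 in the mutant, a ratio of 1.35 (1.20 to 1.53). Kcnj8, the ATP-sensitive pore known from vascular muscle and pericytes, had 74 and 42, so the heterozygote was 1.896-fold higher (1.28 to 2.84). There were 6.43 Kcnj11 reads per Kcnj8 read for the heterozygote and 16.5 for the mutant, 2.57 times as many (1.70 to 3.92). The sulfonylurea receptors that complete these channels stood closer to a ratio of 1. Abcc8 had 94 and 108 reads, a ratio of 1.07 (0.802 to 1.42), and Abcc9 had 2160 and 2000, a ratio of 0.860 (0.809 to 0.915).

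Of the 6 listed markers of pericytes and smooth muscle, 5 stood below a ratio of 1, by unequal amounts. Cnn1 stood at 0.983 (0.942 to 1.03), which spans 1, and Acta2 at 0.845 (0.826 to 0.865). Myh11 had 25 and 13 reads, a ratio of 0.483 (0.227 to 0.981). Rgs5, a pericyte marker, had 48 and 7 reads, a heterozygote to mutant ratio of 7.38 (3.32 to 19.3). Pdgfrb, which marks the same cells as Rgs5, had 445 and 426 reads, a ratio of 0.890 (0.777 to 1.02) that spans 1. Cspg4 was the marker that was higher, at 984 and 1394 reads, and no marker was at 0. Kcnmb1, the accessory subunit of the large-conductance calcium-activated channel of smooth muscle, was higher in the mutant, unlike Kcnj8, with 78 and 144 reads, a ratio of 1.72 (1.29 to 2.29). The part of these cells in either result was not tested.

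Kcnj5 and Kcnj3 form the acetylcholine-activated channel of atrium and pacemaker tissue. Kcnj5 had 708 and 747 reads, a ratio of 0.980 (0.883 to 1.09), whose side of 1 turns when the libraries are scaled by their totals alone. Kcnj3 had 123 and 98 reads, a ratio of 0.740 (0.562 to 0.973), or 0.174 and 0.131 Kcnj3 reads per Kcnj5 read. The pores of the resting inward rectifier also differed in direction. Kcnj2 had 235 and 276 reads, a ratio of 1.09 (0.914 to 1.304), Kcnj12 had 59 and 44, a ratio of 0.693 (0.458 to 1.04), and Kcnj4 had 38 and 52, a ratio of 1.27 (0.821 to 1.99). Each of these 3 intervals spans 1, while the Kcnj12 to Kcnj2 ratio was 0.635 times that of the heterozygote (0.404 to 0.995).

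**Figure D3:**
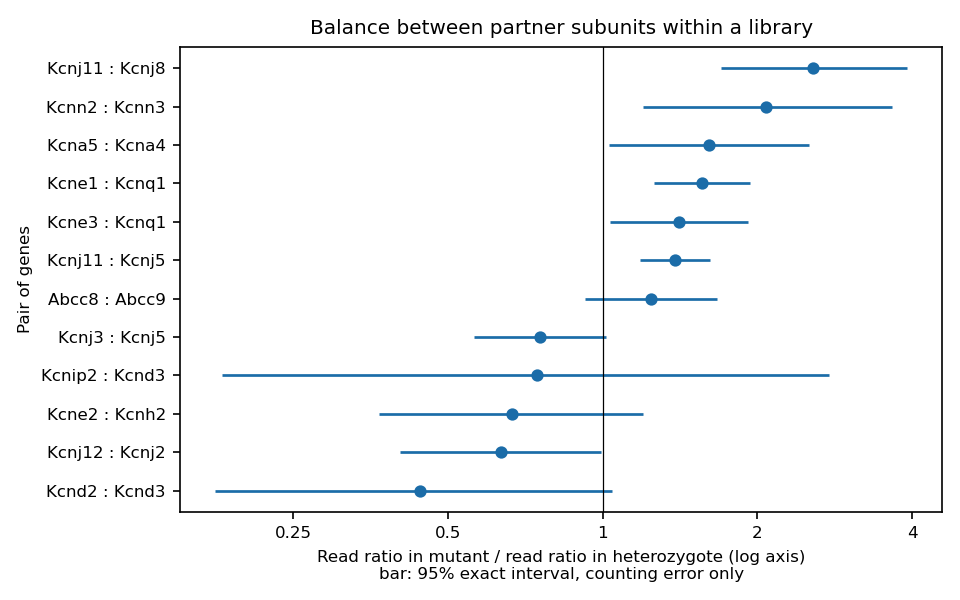
Mutant to heterozygote quotient of the read ratio between paired genes of the same library, on a log axis; points are quotients and bars are 95% exact intervals for counting error only. The Kcnj11 to Kcnj8 quotient of 2.57 and the Kcne1 to Kcnq1 quotient of 1.56 have bars above 1, and the bar of Kcnd2 to Kcnd3 reaches 1.04.

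These 12 pairs, partner subunits or alternative pores of a current, were chosen after the values had been seen. Of them, 6 had an interval above 1, namely Kcnj11 to Kcnj8, Kcnn2 to Kcnn3, Kcna5 to Kcna4, Kcne1 to Kcnq1, Kcne3 to Kcnq1 and Kcnj11 to Kcnj5. Below 1 was the interval of 1 pair, Kcnj12 to Kcnj2. Reversing the order of the genes in a pair moves its interval to the other side of 1, and some genes enter more than 1 pair. The split of the pairs by side is therefore not a result.

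The 2-pore-domain class had 13 genes, 4 of them measured and all 4 above 0, with a median log2 ratio of 0.15 that was 0.06 without the GC trend. Kcnk3, the acid-sensitive background channel, was the most abundant gene of the family by reads, at 1177 and 1362. Its ratio of 1.08 (0.994 to 1.16) spans 1, and its log2 ratio turned from 0.10 to -0.12 without the GC trend. A model on the strand opposite Kcnk3 had 82 and 115 reads. Kcnk6 had 86 and 108 reads, Kcnk5 had 53 and 62, and Kcnk1 had 26 and 43, all with intervals that span 1, and Kcnk5 turned to -0.02 on the log2 scale without the GC trend. Kcnk2, a stretch-activated leak channel, had 9 and 10 reads.

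Of 8 calcium- or sodium-activated pores 4 were measured, 1 above 0 and 3 below, with a median log2 ratio of -0.15. Kcnn2, a small-conductance pore of atrial and pacemaker cells, had 124 and 170 reads, a ratio of 1.27 (1.005 to 1.62). Kcnn3 had 44 and 29, a ratio of 0.612 (0.370 to 1.001), and was the nearest gene outside 1.5-fold on the lower side. Reads of Kcnn2 per Kcnn3 read went from 2.82 to 5.86, which is 2.08 times (1.20 to 3.65). Kcnn1 had 61 and 57 reads, and Kcnma1, the large-conductance pore that Kcnmb1 joins, had 1 and 6. The difference in Kcnmb1 was therefore seen with almost no reads of its pore. Kcnmb4, a relative of Kcnmb1, had 19 and 23 reads.

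Accessory genes were the class with the highest summed ratio, 1.41 (1.29 to 1.53) over 959 and 1451 reads. Of 14 genes 10 were measured, 8 above 0 and 2 below, with a median log2 ratio of 0.29 that was 0.11 without a filter on low values. Kcne1 held more than any other gene of this sum. The pore-forming genes together stood at 1.10 (1.06 to 1.14). Kcnip3, which acts both on Kcnd pores and as a transcription repressor, had 18 and 37 reads, a ratio of 1.91 (1.06 to 3.56). The table holds a further model of the same gene region, DREAM/calsenilin/KChIP3, with 17 and 44 reads, and reads may be split between the pair. Kcnab2 had 85 and 100 reads, a ratio of 1.09 (0.810 to 1.48), so the ratio of Kcnab3 was not shared by that relative.

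To compare genes with each other, CPM were divided by the length of the longest transcript. On that scale of CPM per kb, averaged over both libraries, Kcnk3 stood at 23.7, Kcnh2 at 19.5, Kcne1 at 15.7, Kcnj11 at 13.2 and Kcnj5 at 11.1. Behind them came Kcne3 at 7.58, Kcnq1 at 5.53, Kcnj2 at 3.34, Kcnn2 at 2.83 and Kcna5 at 2.38 CPM per kb. In the heterozygote Kcnj11 and Kcnj5 were alike at 11.2 CPM per kb each, while in the mutant Kcnj11 stood at 15.2 and Kcnj5 at 10.95. Genes with high ratios sat far lower, with Kcnab3 at 0.233 and 1.14 and Kcng1 at 0.127 and 0.470 CPM per kb, heterozygote first.

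**Figure D4:**
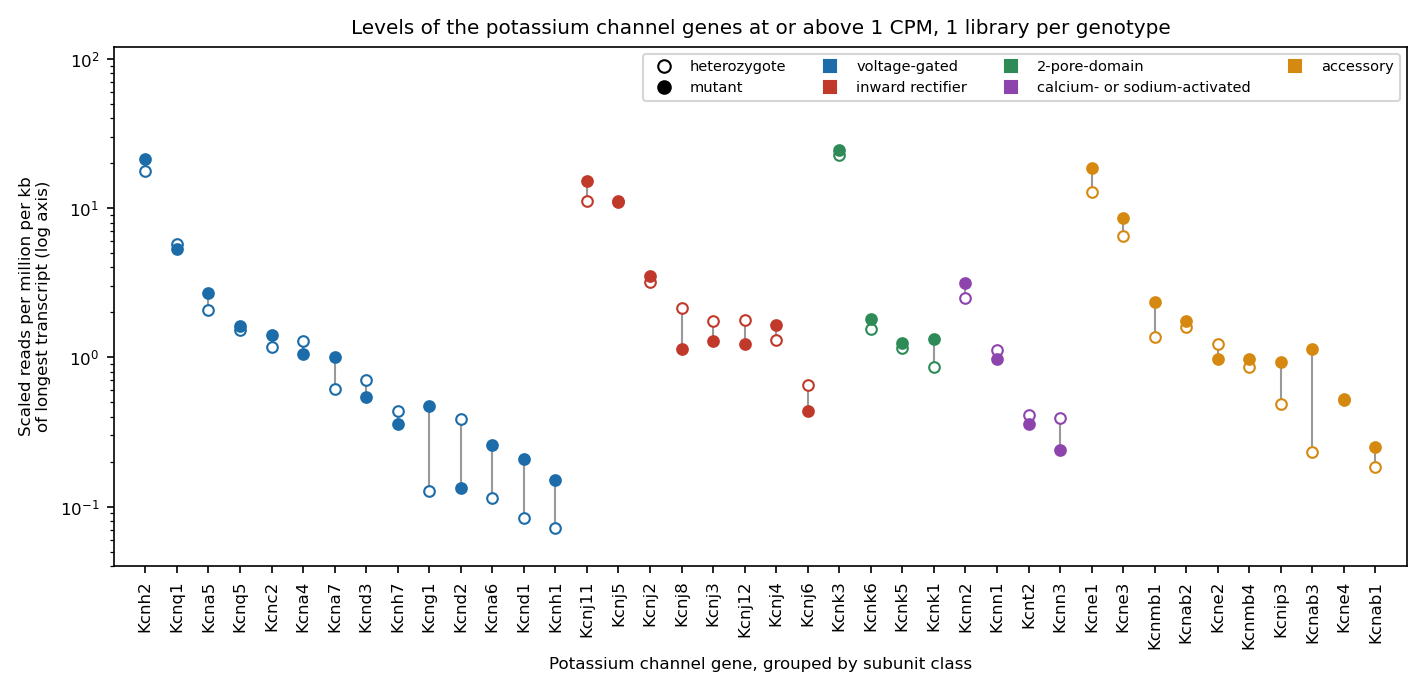
Scaled CPM per kb of the longest transcript, on a log axis, for 40 of the 42 measured potassium channel genes, ordered by level within each class; open circles are the heterozygote, filled circles the mutant, 1 library each. Kcnk3, Kcnh2, Kcne1, Kcnj11 and Kcnj5 lie above 10 CPM per kb in both libraries, and most of the wide gaps lie below 1.

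Below 1 CPM in both libraries were 45 of the 87 genes, with 103 and 155 reads in all, a ratio of 1.40 (1.08 to 1.81), where all genes below 1 CPM stood at 1.06 (1.03 to 1.08). Of these 45, 21 were higher in the mutant, 10 lower and 14 had no read. Of all 13198 genes below 1 CPM, 2505 were higher, 2609 lower and 8084 had no read. Among the genes with no read were Kcna2, Kcna10, Kcng4, Kcnh5, Kcnh8, Kcnj9, Kcnj16, Kcnk9, Kcnk12, Kcnk15, Kcnk18, Kcns2 and Kcnv1. A count of 0 allows up to 3 reads. Reads in the mutant alone were seen for Kcnb2, Kcnc4 and Kcng3 with 3 each, Kcnh6 and Kcnj1 with 2 each, and Kcnv2 with 1. Reads in the heterozygote alone were seen for Kcnip1 with 2 and for Kcnc1 and Kcnt1 with 1 each. All 9 are at or under what a count of 0 allows, so none can be called present in a single genotype. Just below 1 CPM lay Kcnk4 with 4 and 13 reads, and just above it Kcnab1 with 11 and 16 and Kcnd1 with 6 and 16.

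GC content moved with these ratios. Across the 42 measured genes the log2 ratio and the GC content of the longest transcript had a Spearman rho of 0.42, and across 13287 measured genes with a GC value the rho was 0.41. Both describe genes of the same 2 libraries and are not tests. The 21 potassium channel genes above their median GC had a median log2 ratio of 0.33, where all genes of that GC range had 0.11. The other 21 had -0.02, where all genes had -0.07. Without the trend, 1 gene in place of 2 was at least 2-fold higher, Kcnab3, beside 0.497% of all genes, and 4 in place of 7 were at least 1.5-fold higher, with Kcnab3, Kcng1 and Kcnmb1 among them, beside 2.63% of all genes, while Kcnd2 and Kcnj8 were still at least 1.5-fold lower, beside 1.24%. The part of GC content in the differences was not tested beyond this removal.

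**Figure D5:**
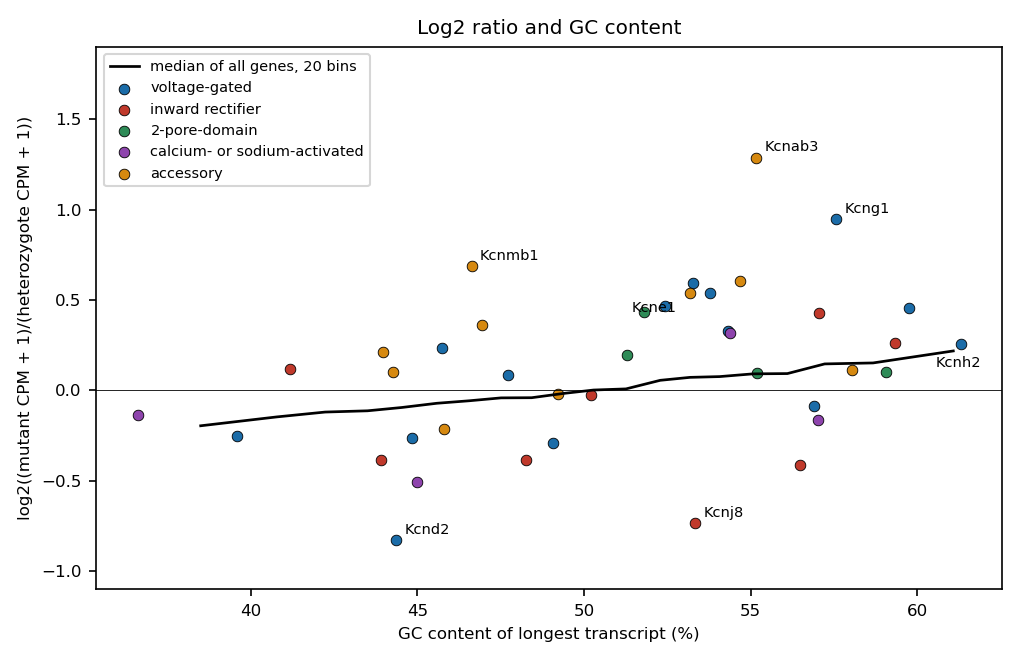
Log2 ratio of mutant to heterozygote, with 1 CPM added to both, against the GC content in percent of the longest transcript for 40 of the 42 measured potassium channel genes, coloured by class; the black line is the median of all measured genes in 20 bins of GC content. Kcnh2 lies on the line at high GC, Kcnab3, Kcng1 and Kcnmb1 lie well above it, and Kcnj8 and Kcnd2 lie below it.

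CpG-rich promoters are where Polycomb repressive complexes, of which Ezh2 is part, are known to sit. A RefSeq promoter entry (build GRCm38.p6) was found for 63 of the 87 genes, and the 250 bases before the start held a median of 12 CG pairs, against 6 over 27025 genes, taking the start with the most CG pairs where a gene has several. For the 31 measured genes with an entry, the number of CG pairs and the log2 ratio had a Spearman rho of -0.16. This is a description over genes of 2 libraries, and no binding or histone mark was measured. The stretches before the start are shown for the 2 genes that were at least 1.5-fold lower and for Kcnmb1, which counted more reads than any other of the 7 higher genes. CG pairs are in capitals, the letters run in the sense of the gene, and none overlaps an annotated exon.
Kcnd2, chr6:21215096-21215345, plus strand, 22 CG pairs: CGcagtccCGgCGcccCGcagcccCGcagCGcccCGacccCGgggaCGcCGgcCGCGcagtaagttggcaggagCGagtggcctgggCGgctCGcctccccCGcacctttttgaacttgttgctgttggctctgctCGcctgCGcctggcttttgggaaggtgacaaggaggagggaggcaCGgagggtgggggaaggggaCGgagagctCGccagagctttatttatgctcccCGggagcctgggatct
Kcnj8, chr6:142571615-142571864, minus strand, 6 CG pairs: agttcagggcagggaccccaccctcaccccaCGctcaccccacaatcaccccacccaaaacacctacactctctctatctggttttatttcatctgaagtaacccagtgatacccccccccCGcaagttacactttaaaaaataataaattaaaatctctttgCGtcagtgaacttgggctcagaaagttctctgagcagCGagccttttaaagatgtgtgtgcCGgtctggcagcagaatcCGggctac
Kcnmb1, chr11:33962763-33963012, plus strand, 1 CG pair: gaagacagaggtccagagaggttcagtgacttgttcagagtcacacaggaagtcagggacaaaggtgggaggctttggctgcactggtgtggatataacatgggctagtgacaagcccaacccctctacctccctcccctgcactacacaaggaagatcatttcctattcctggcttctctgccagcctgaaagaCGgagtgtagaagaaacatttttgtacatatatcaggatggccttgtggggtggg
Kcnd2 lay above the family's median of 12 CG pairs, and Kcnj8 and Kcnmb1 lay below it.

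Channels of the heart known for repolarization were also taken as a list of 25 potassium channel genes. Of these 22 were measured, 10 above 0 and 12 below, with a median log2 ratio of -0.02. At least 1.5-fold higher was 1, beside 3.45% of all genes, and lower were 2, Kcnd2 and Kcnj8, beside 1.88%. Kcnd2 reached 1 CPM in the heterozygote alone, so its direction follows from the filter. A list of 16 partners of potassium channels, the noncoding RNA Kcnq1ot1 among them, gave 12 measured genes, with 5 above 0 and 7 below; Kcnq1ot1 was below. Dpp6 was the 1 partner at least 1.5-fold higher, but it reached 1 CPM in the mutant alone, so its direction follows from the filter. Among 13 genes of other membrane currents, pumps and exchangers, 11 were measured and 4 were at least 1.5-fold higher, beside 3.45% of all genes, with 0 lower, beside 1.88%. These were the pacemaker channel Hcn4 with 205 and 638 reads, a ratio of 2.89 (2.47 to 3.40), and the calcium channels Cacna1d (1.55, 1.31 to 1.84), Cacna1g (1.82, 1.37 to 2.44) and Cacna1h (1.70, 1.57 to 1.83). Without the GC trend Hcn4, at a log2 ratio of 1.23, was the 1 gene of them still at least 1.5-fold higher, while Cacna1d stood at 0.50, Cacna1g at 0.49 and Cacna1h at 0.44. Of the 5 pacemaker and conduction markers in the table all were higher in the mutant, 4 of them at least 2-fold, beside 0.605% of all genes, and their sum went from 89.5 to 152 CPM. Of these 4, Isl1 reached 1 CPM in the mutant alone, so its direction follows from the filter. The part of such cells in the levels of Kcne1, Kcnj11 or Kcnn2 was not tested.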

How the data were processed

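The deposited table gives whole-number read counts for 29595 gene models in 1 library per genotype, per the file headers. The authors also deposited CPM, each count per 1e+06 reads of its library, which were recomputed to within 4.91e-11. Their fold, a ratio of heterozygote over mutant, and a deposited p-value with no named test, per the file headers, were not used. The aligner, the way reads were counted, strand use and the coordinates' build were not given in the sources used here.

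Rows of 1 symbol were summed to 29383 genes. CPM were scaled by TMM (edgeR 4.0.16, R 4.3.3), with factors of 0.970 (heterozygote) and 1.03 (mutant), and log2 ratios used a pseudocount of 1 CPM. The code for ratios and intervals was tested on simulated data. For the GC alternative, a second-degree curve in GC content and log length was subtracted, estimated from genes whose mean reached 5 CPM. For it, 100% of the potassium channel genes and 82.1% of measured genes had a value from GENCODE M21.

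With 1 library per genotype, genes were compared by size of ratio and counting interval, with no test. The labels name no molecular identifiers, so intervals cover the counting of reads, not of molecules. Named were Ezh2, all potassium channel genes at least 1.5-fold apart, the 3 most abundant of each class, those known from cardiac repolarization, those next to a threshold and those with reads in 1 library; others are named after their values were seen. The genes and lists were chosen with earlier results of these data known. Alternatives changed scaling, pseudocount, filter, GC trend and the handling of symbols with several rows. Some genes are not reported here by name or value, and counts, sums and medians include them.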

Additional observations from a re-analysis of the deposited data

How the results depend on the processing

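No paired analysis was possible because there is 1 library per genotype, and for the same reason no replicate could be left out. The counts of potassium channel genes past 2-fold and 1.5-fold, the median of the 42 measured genes and that of each class were recomputed under 9 alternatives; other counts and medians were not, except where the GC trend is named. Scaling by library totals, by the upper quartile or by the median, and taking the largest row of each symbol, kept each of these counts within 1.5 times and each of these medians within 0.1 of its value. Among 47 named genes including Ezh2, library totals changed the sign of 2 (Kcne4 and Kcnj5) and removal of the GC trend that of 5 (Kcne4, Kcnh2, Kcnk2, Kcnk3 and Kcnk5), with Kcnh2 at -0.03 and Kcnk3 at -0.12. The counts rest on genes with few reads and so on the pseudocount and filter. With a pseudocount of 0.1 CPM, 5 genes passed 2-fold higher (1.93% of all genes did), 1 passed 2-fold lower (0.884%) and 11 passed 1.5-fold higher (6.14%). With 5 CPM, 0 passed 2-fold higher (0.0865%), 0 passed 1.5-fold higher (0.748%) and 0 passed 1.5-fold lower (0.309%). With a filter of 5 CPM, which 20 genes pass, these counts were 0 (0.388%), 1 (2.17%) and 1 (1.23%). Without the GC trend, 1 was at least 2-fold (0.497%) and 4 at least 1.5-fold higher (2.63%). A pseudocount of 5 CPM gave a voltage-gated median of 0.159 and an inward rectifier median of -0.094, and the 5 CPM filter gave -0.003 and -0.028. For calcium- or sodium-activated genes it was -0.01 without a filter and 0.32 with the 5 CPM filter, which leaves 1 gene. For accessory genes it was 0.39 and 0.16 with pseudocounts of 0.1 and 5 CPM, 0.11 without a filter, 0.45 with the 5 CPM filter and 0.39 without the GC trend.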

Other observations

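Several potassium channel genes lie next to each other on a chromosome. In some such pairs the members had very different read numbers. In others both had few reads or none, as with Kcna2 and Kcna10, which had no read in either library. Kcne2 and Kcne1 lie 47.9 kb apart, in coordinates of the deposited table, whose build the sources used here do not give. With the heterozygote first, Kcne2 had 28 and 24 reads, while Kcne1 had 548 and 863. Kcnj16 and Kcnj2 lie 38.2 kb apart, with no read of Kcnj16 in either library and 235 and 276 reads of Kcnj2. Kcnj5 and Kcnj1 lie 28.2 kb apart, with 708 and 747 reads of Kcnj5 and 0 and 2 of Kcnj1, a channel of the kidney. In the cluster of Kcna5, Kcna1 and Kcna6, the reads were 80 and 112, 1 and 5, and 9 and 22.

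Each ATP-sensitive pore lies beside a sulfonylurea receptor gene. Kcnj8 lies 16.5 kb from Abcc9, with 74 and 42 reads of Kcnj8 and 2160 and 2000 of Abcc9. Kcnj11 lies 4.29 kb from Abcc8, with 476 and 694 reads of Kcnj11 and 94 and 108 of Abcc8. Kcnmb1 lies within the span of Kcnip1 on the other strand, with 78 and 144 reads of Kcnmb1 and 2 and 0 of Kcnip1.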
